A study of Mus musculus with 50 samples.

Results

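The 10 genes described here encode secreted or membrane-bound matrix proteases and their inhibitors: the Adamts proteases Adamts1, Adamts4 and Adamts9, the matrix metalloproteinases Mmp9, Mmp12, Mmp13 and Mmp14, and the tissue inhibitors of metalloproteinases Timp1, Timp2 and Timp3. They were chosen by symbol from the 53700 genes counted, with earlier results of these data known, and each symbol matched 1 gene. Their levels were measured by poly-A mRNA sequencing of microglia, the resident macrophages of the brain, sorted as CD45int CD11b+ cells from both hippocampi of 50 male C57BL/6J mice, with 1 library per mouse. Mice were reared under control conditions (CTR) or exposed to early-life stress (ELS) by limited bedding and nesting material between postnatal days 2 and 9. Microglia were taken at P9 from 12 P9-CTR and 13 P9-ELS mice that received no injection, and at P200 from mice injected intraperitoneally with PBS or with 1 mg/kg lipopolysaccharide (LPS), a bacterial cell wall component: 7 CTR-PBS, 6 ELS-PBS, 7 CTR-LPS and 5 ELS-LPS mice. The P200 mice were killed within hours of the injection, so that later responses to LPS were not covered. Myelin was removed from the cell suspension at P200 but not at P9, so that this step, the injection and the age cannot be told apart in a comparison of the ages. The number in a mouse label was read as a nest and a mouse within it, and mice are named here by these 2 numbers. By this reading the 12 P9-CTR mice came from 5 nests, the 13 P9-ELS mice from 4, and each P200 group from 5.

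These proteases act outside the cell on collagens, laminins and the proteoglycans that form the neural extracellular matrix. Adamts proteases cleave hyaluronan-binding proteoglycans such as versican, brevican and neurocan, matrix metalloproteinases cleave collagens, gelatin and elastin, and Timp proteins bind and block the active proteases, Timp3 also inhibiting Adamts4 and several membrane sheddases. Microglia are known as a source of such enzymes in the inflamed brain, where matrix turnover accompanies the activation of immune cells.

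Adamts1, Adamts4 and Mmp14 are the members that were called after LPS, so the 250 bases before the start of their canonical transcripts are given here, 5′ to 3′ on the strand of the gene, from the GRCm39 genome with GENCODE transcript starts. The windows were chr16:85600010-85600259 on the minus strand for Adamts1, chr1:171077740-171077989 on the plus strand for Adamts4, and chr14:54668628-54668877 on the plus strand for Mmp14. Capitals mark the motifs that were searched on both strands, namely the AP-1 motif TGANTCA, the cyclic AMP response element TGACGTCA, the TATA box TATAAA and the NF-kB consensus.
Adamts1: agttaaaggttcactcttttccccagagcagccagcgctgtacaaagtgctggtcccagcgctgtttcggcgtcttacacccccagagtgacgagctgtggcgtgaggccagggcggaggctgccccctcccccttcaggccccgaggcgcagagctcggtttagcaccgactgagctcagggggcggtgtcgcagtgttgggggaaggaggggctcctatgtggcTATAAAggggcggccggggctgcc
Adamts4: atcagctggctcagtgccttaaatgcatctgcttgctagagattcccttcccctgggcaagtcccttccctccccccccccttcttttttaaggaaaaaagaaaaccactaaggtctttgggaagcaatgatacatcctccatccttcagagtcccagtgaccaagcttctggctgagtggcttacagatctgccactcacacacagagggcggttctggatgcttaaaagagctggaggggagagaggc
Mmp14: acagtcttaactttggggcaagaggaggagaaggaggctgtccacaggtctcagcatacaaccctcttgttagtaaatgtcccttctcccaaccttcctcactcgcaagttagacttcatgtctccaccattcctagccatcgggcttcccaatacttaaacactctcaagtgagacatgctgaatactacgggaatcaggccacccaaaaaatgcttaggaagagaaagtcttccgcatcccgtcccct
A TATA box stood 24 bases before the Adamts1 start, and none of the 4 motifs occurred in the windows of Adamts4 and Mmp14. Over the same window of 21626 protein-coding genes, TATAAA was found in 11.9%, TGANTCA in 6.19%, TGACGTCA in 1.69% and the NF-kB consensus in 7.61%. An AP-1 motif was present in the windows of Mmp9, Mmp12 and Mmp13, at 69, 44 and 35 bases before the start, and a TATA box at 16 bases in Mmp13. The NF-kB consensus was found in the last 10 bases of the Adamts9 window. These matches describe letters in a window and not binding.

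Of the 10 members, 7 passed the filter on low counts (a level of 1 CPM or more in over 2 mice, CPM being the count scaled to a library of fixed size) and were tested among 16696 genes, while Adamts9, Mmp13 and Timp1 did not pass it. Mmp9 passed it through only 3 mice, all of them P9-CTR, so that its comparisons with P9-CTR mice depend on the filter. Libraries held 5152838 to 42231258 counts (median 19960409.5). Values are CPM after TMM normalisation, which scales each library to the bulk of its genes. A gene was called when its log2 fold change was beyond 1 or -1 and edgeR's quasi-likelihood test, with Benjamini-Hochberg adjustment, gave an adjusted p under 0.05. Few genes were detected in the P9-ELS mice 3 and 2 of nest 19 (12482 and 15731) and in the CTR-PBS mouse 1 of nest 1 (12854), against a median of 18898 over all mice, and calls that change without the 2 P9-ELS mice are given beside the result. The 10 microglia markers were detected in every group. Their summed level per mouse was 38170 to 65070 CPM at P9, 78120 to 86230 in PBS mice and 68900 to 86390 in LPS mice at P200. Of the 10 neutrophil markers Ly6g and Retnlg had no count in any mouse, while 7 had counts at P9 and 8 after LPS. In bulk samples, fewer cells of a type and less RNA per cell cannot be told apart.

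Compared per kb of exon, Timp2 had the highest level of the 10 genes in all 6 groups. Its mean was between 13.3 and 16.8 CPM per kb, and the spread of the groups overlapped. Adamts1 came second in 5 groups, with 1.26 ± 0.81 (SD, n = 7) CPM per kb in CTR-PBS mice and 7.32 ± 4.70 (n = 7) in CTR-LPS mice. In ELS-PBS mice Mmp14 (1.44 ± 0.36, n = 6) and Adamts1 (1.38 ± 0.80) differed by less than their SD. Timp3 held the third place at P9, with 0.686 ± 0.307 (n = 12) CPM per kb in P9-CTR mice, followed by Mmp14 with 0.319 ± 0.230. After LPS Mmp14 and Adamts4 came next after Adamts1, at 1.82 ± 0.39 and 1.69 ± 2.61 CPM per kb in CTR-LPS mice and 3.04 ± 0.67 and 2.87 ± 3.01 in ELS-LPS mice (n = 5), again within their spread. Adamts9, Mmp9, Mmp12, Mmp13 and Timp1 stayed at or below 0.255 CPM per kb in every group.

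**Figure D1:**
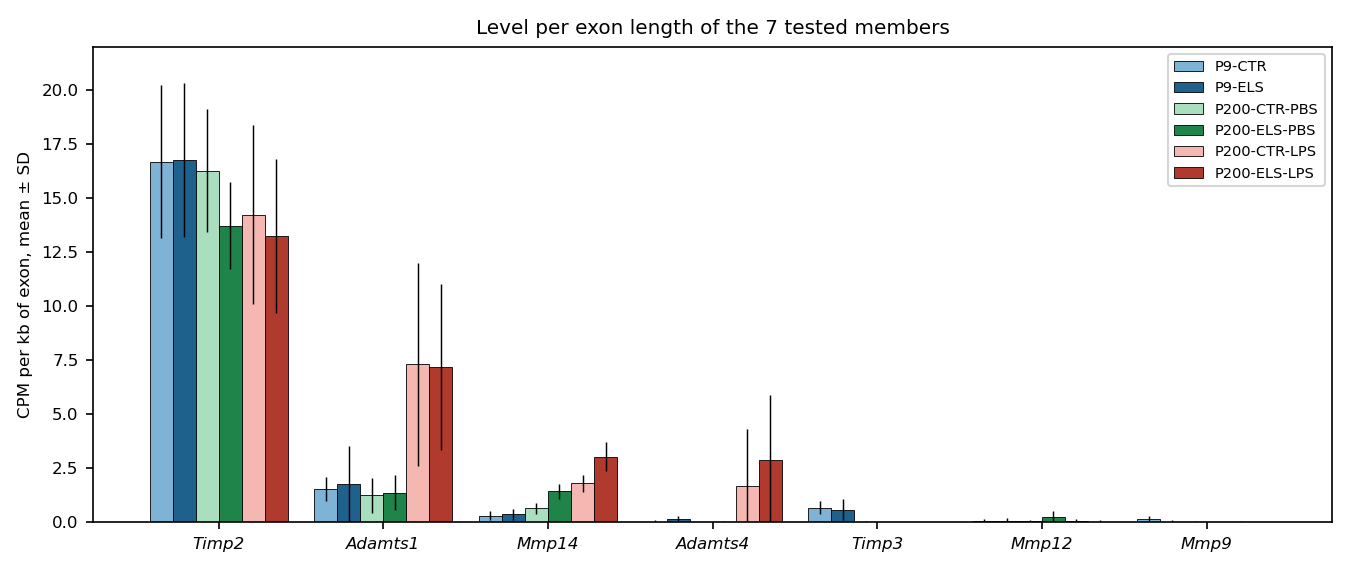
Mean level per kb of exon (CPM per kb, linear axis from 0) of the 7 tested members in the 6 groups, with the SD over mice as error bars (cut at 0). Timp2 lies between 13.3 and 16.8 in all groups, whereas Adamts1, Mmp14 and Adamts4 have their highest bars in the LPS groups.

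To see which members respond to an immune challenge in adult microglia, LPS-injected mice were compared with PBS-injected mice of the same rearing condition. Adamts1, Adamts4 and Mmp14 rose in CTR mice, and Adamts1 and Adamts4 rose in ELS mice. In all, 3 of the 7 tested members were called higher in CTR mice, where 6.02% of all tested genes were called higher and 9.62% in either direction, and 2 of 7 in ELS mice, where the shares were 4.69% and 7.86%. No member was called lower after LPS, where 3.6% of genes in CTR mice and 3.17% in ELS mice were. As the members were chosen with earlier results of these data known, these counts carry no test of the list. No median over the members is given, since the middle value belonged in both conditions to Mmp9, which had 7 and 12 counts in the CTR groups and 1 count in the ELS mice together.

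Adamts1, a secreted protease that cleaves versican and aggrecan, was present in 48 of 50 mice. In CTR-PBS mice it ranged from 0 to 12.8 CPM with a median of 6.80, and in CTR-LPS mice from 17.0 to 94.2 with a median of 31.1. Every CTR-LPS mouse was above every CTR-PBS mouse, and the mean was 5.84-fold higher (log2 fold change 2.54, SE 0.61, edgeR adjusted p = 0.00209). In ELS-PBS mice it ranged from 2.28 to 14.8 CPM with a median of 6.26. The 5 ELS-LPS mice had 8.04, 29.1, 46.8, 53.27 and 60.2 CPM, the lowest of which (mouse 2 of nest 11) lay within the range of the ELS-PBS mice. The mean difference was 5.24-fold (log2 fold change 2.39, SE 0.67, edgeR adjusted p = 0.0118). Without overlap and higher after LPS were 3 of the 7 members in CTR mice, against 4.92% of the tested genes, and 2 of 7 in ELS mice, against 5.65%. Over the 25 P200 mice the log2 CPM of Adamts1 was most like that of Cd274 (Pearson r = 0.958), which encodes the immune checkpoint ligand PD-L1, followed by Mafk (0.955) and Sdad1 (0.955). These correlations describe mice that share a treatment difference, and carry no test.

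Adamts4, an aggrecanase that cleaves the brain proteoglycan brevican, was near 0 without LPS and rose from there in both conditions. None of the 7 CTR-PBS mice had a count, whereas all 7 CTR-LPS mice did, from 0.0900 to 47.5 CPM with a median of 4.29. Set against a floor of 3 counts over the CTR-PBS group, the mean of the CTR-LPS mice was at least 546-fold higher (edgeR adjusted p = 1.32e-05). In ELS-PBS mice Adamts4 was at 0 in 5 of 6 mice, and mouse 1 of nest 11 had 16 counts (0.827 CPM). The ELS-LPS mice had 1.46, 3.15, 12.2, 28.1 and 47.7 CPM, all above the ELS-PBS mice, and the mean was 134-fold higher (log2 fold change 7.14, SE 1.47, edgeR adjusted p = 4.27e-04). Without mouse 1 of nest 11 this fitted value was 11.64, against a group at 0. The LPS mice differed widely among themselves. CTR-LPS mouse 2 of nest 8 had the highest level of that group for Adamts4 (47.5), Adamts1 (94.2) and Mmp14 (15.0), and ELS-LPS mouse 1 of nest 20 was highest of its group for the same 3 genes. CTR-LPS mouse 2 of nest 15, with 2 Adamts4 counts, had 31.1 CPM of Adamts1.

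Mmp14, a membrane-bound metalloproteinase that cleaves collagen and activates pro-Mmp2, had counts in all 50 mice. It ranged from 1.83 to 6.97 CPM (median 3.89) in CTR-PBS mice and from 7.38 to 15.0 (median 11.4) in CTR-LPS mice, without overlap. The mean was 2.78-fold higher (log2 fold change 1.47, SE 0.44, edgeR adjusted p = 0.0161). In ELS-PBS mice it ranged from 5.17 to 10.9 CPM (median 9.40), and the ELS-LPS mice had 13.3, 15.6, 19.8, 21.9 and 23.0 CPM. These groups did not overlap either, yet the difference was not called (log2 fold change 1.07, SE 0.49, edgeR adjusted p = 0.155). It was called when only the compared groups were fitted (1.07, edgeR adjusted p = 0.00539), with the nest number as a replicate block (1.09, edgeR adjusted p = 0.0152) and with limma-voom and the nest as random effect (1.045, adjusted p = 0.0115). The profile of Mmp14 over the P200 mice was most like those of Dusp1 (r = 0.873), an immediate early phosphatase gene, Dnah17 (0.869) and Nectin2 (0.864).

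**Figure D2:**
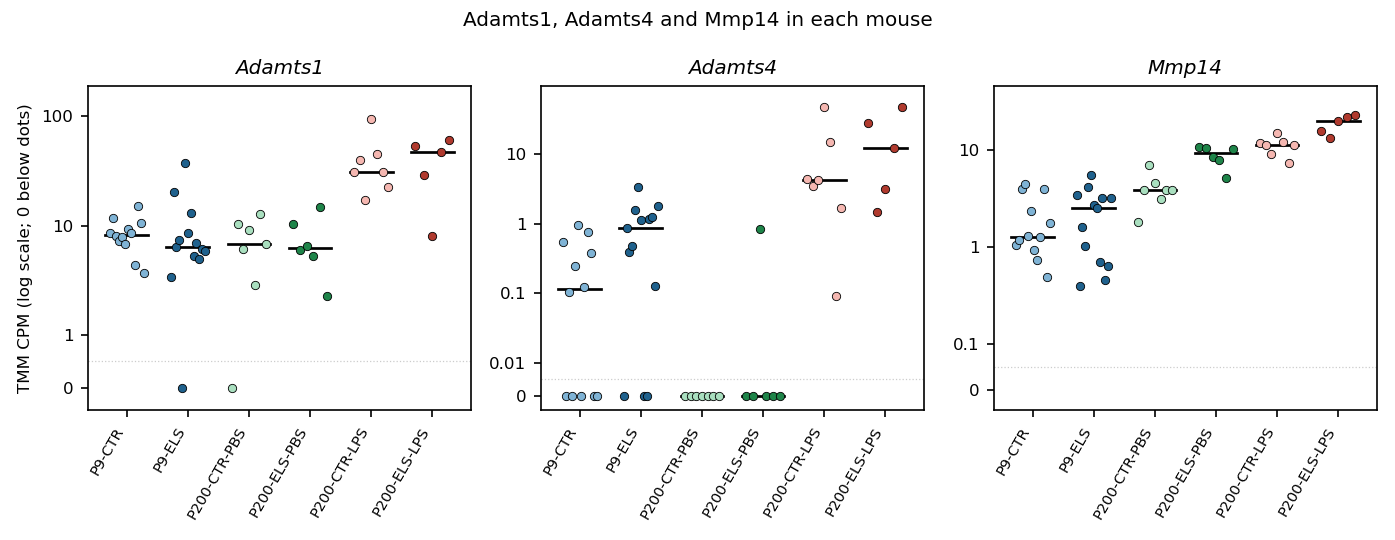
TMM-normalised CPM of Adamts1, Adamts4 and Mmp14 in each mouse of the 6 groups (log axis, mice at 0 below the dotted line, horizontal bars are medians). All LPS mice lie above all PBS mice of their condition for Adamts4 and Mmp14, and for Adamts1 only in CTR mice.

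The tested inhibitors, Timp2 and Timp3, were not called after LPS, although Timp3 in CTR mice was called in several other fits. Timp2, which inhibits metalloproteinases and also bridges pro-Mmp2 to Mmp14, ranged from 57.4 to 96.2 CPM (median 71.7) in CTR-PBS mice and from 32.7 to 87.9 (median 69.4) in CTR-LPS mice, with overlapping groups. In ELS-PBS mice it ranged from 51.5 to 78.0 CPM (median 58.7), and the ELS-LPS mice had 38.2, 48.6, 62.0, 69.2 and 77.7. The lowest Timp2 levels of all 50 mice were those of CTR-LPS mouse 3 of nest 8 (32.7), ELS-LPS mouse 2 of nest 2 (38.2) and CTR-LPS mouse 2 of nest 8 (46.0), and their Adamts4 levels were 15.15, 28.1 and 47.5 CPM. The mouse next above them in Timp2, ELS-LPS mouse 2 of nest 4 (48.6), had 1.46 CPM of Adamts4, and the mouse with the highest Adamts4, ELS-LPS mouse 1 of nest 20 (47.7), had 62.0 CPM of Timp2. Timp2 was most like Rab14 (r = 0.784), Abhd17c (0.768) and Akr1b10 (0.727) over the P200 mice.

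Timp1, the inducible secreted inhibitor, had at most 10 counts in a mouse. At P200 it was at 0 in all 13 PBS mice, and 3 of 12 LPS mice had counts, namely 2 in CTR-LPS mouse 2 of nest 8, 2 in ELS-LPS mouse 1 of nest 20 and 10 in ELS-LPS mouse 3 of nest 17. Mmp13, a collagenase, was at 0 in 48 of 50 mice, and the other mice were CTR-LPS mouse 2 of nest 15 with 34 counts (1.53 CPM) and ELS-LPS mouse 2 of nest 11 with 6. Neither gene was tested. Mmp9, the gelatinase known from leukocytes, had 7 counts in all CTR-PBS mice, 12 in all CTR-LPS mice, none in ELS-PBS mice and 1 in ELS-LPS mice. Mmp12, the macrophage elastase, had counts in 3 of 7 CTR-LPS and 3 of 7 CTR-PBS mice, and was not called. Among ELS mice it had counts in 4 of 6 after PBS and 2 of 5 after LPS. Its mean there was 1.85 and 0.303 CPM, 6.08-fold lower after LPS, which was not called either. Timp3 had 32 counts in CTR-PBS mice, 14 of them in mouse 1 of nest 8 and 17 in mouse 2 of nest 18, and 4 counts in CTR-LPS mice, a difference that was not called (log2 fold change -2.74, SE 1.13, edgeR adjusted p = 0.0969). Without CTR-LPS mouse 2 of nest 8, which had 3 of the 4 counts, it was -4.10 with an edgeR adjusted p of 0.0343. It was also called by the likelihood-ratio test (adjusted p = 0.0392), by DESeq2 (0.0498) and without the P9-ELS mice 2 and 3 of nest 19 (edgeR adjusted p = 0.0474), but not with the nest number as a replicate block (edgeR adjusted p = 0.469).

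Whether the response to LPS differed between ELS and CTR mice was tested as an interaction. No member was called, nor was any of the 16696 genes (0%), with 980 genes (5.87%) at an unadjusted p under 0.05, Timp3 being 1 of them (edgeR adjusted p = 0.657). DESeq2 and the likelihood-ratio test called no member either. For Adamts1 the difference between the responses was -0.16 (SE 0.88) and for Mmp14 -0.40 (SE 0.65) on the log2 scale. The summed level of 8 monocyte markers was 32.2 to 77.9 CPM in CTR-PBS and 31.9 to 149 in CTR-LPS mice, where 7 of 8 had counts and Ly6c2 was at 0. In ELS mice it was 27.1 to 66.9 CPM after PBS and 78.0 to 177 after LPS, where all 8 had counts, and these groups did not overlap. The summed level of 10 neutrophil markers in PBS and LPS mice was 0 to 1.29 and 0 to 9.99. The 8 astrocyte markers summed to 303 to 503 CPM in PBS mice and to 424 to 619 in LPS mice. Their part in the LPS differences was not tested.

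Around these members, genes of the plasminogen system and activating proteases were compared after LPS, as plasmin is a protease that activates several metalloproteinases. Of 7 tested, 2 were called higher and 1 lower in each condition, and they were the same genes. Over all tested genes 6.02% were called higher and 3.6% lower in CTR mice, and 4.69% and 3.17% in ELS mice. Plaur, the urokinase receptor, rose from 21.3 ± 5.45 (SD, n = 7) to 237 ± 107 (n = 7) CPM in CTR mice and from 18.9 ± 8.43 (n = 6) to 256 ± 172 (n = 5) in ELS mice. Hpn, the membrane serine protease hepsin, rose from 6.01 ± 3.08 to 24.6 ± 12.3 CPM in CTR mice and from 4.58 ± 2.84 to 25.2 ± 8.71 in ELS mice. Plau, urokinase itself, fell from 8.22 ± 1.22 to 2.62 ± 0.76 CPM in CTR mice and from 6.61 ± 2.16 to 2.95 ± 1.28 in ELS mice. The edgeR adjusted p was between 9.86e-10 and 0.0109 for these 6 differences.

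Of 11 other Mmp genes tested, Mmp19 was called higher in CTR mice, from 6.36 ± 3.23 to 21.4 ± 5.47 CPM (n = 7 each, edgeR adjusted p = 0.00346), and none in ELS mice. The counts of this and the following lists stand beside 6.02% of all tested genes called higher and 3.6% lower in CTR mice. The shares in ELS mice were 4.69% and 3.17%. Of 7 other Adamts and Adamtsl genes tested, 2 were called lower and none higher in each condition. Adamts16 fell from 9.62 ± 4.38 to 2.98 ± 1.29 CPM in CTR mice (edgeR adjusted p = 4.06e-04) and from 9.43 ± 2.62 to 2.79 ± 2.13 in ELS mice (adjusted p = 0.00203). Adamts17 was called lower in CTR mice and Adamts6 in ELS mice, from means of 0.239 and 1.55 CPM in the PBS mice. No membrane Adam sheddase (7 tested) and no matrix-degrading cathepsin (5 tested) was called. Among 15 matrix substrates, Fn1 and Cd44 were called higher in CTR mice, and Col4a2 and Vcan in ELS mice. Of these Cd44, the hyaluronan receptor, had the highest level, 3.51 ± 2.66 CPM in CTR-LPS mice against 0.486 ± 0.454 in CTR-PBS mice. As no gene passed the interaction test, the lists were not shown to differ between the conditions.

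To describe the members over development, PBS-injected P200 mice were compared with P9 mice of the same condition. Mmp14 rose and Timp3 fell in both conditions, Adamts4 fell in CTR mice and Mmp9 fell in ELS mice. In CTR mice 1 of 7 members was called higher and 2 lower, where 7.98% of all tested genes were called higher and 18.5% lower (26.4% in all). In ELS mice 1 was called higher and 2 lower, against 8.68% and 17.5% (26.2% in all). At an unadjusted p under 0.05 there were 4 of 7 members in each condition, against 50.4% and 48.7% of all genes. No median over the members is given for CTR mice, since the middle value belonged to Mmp12. That gene had counts in 3 of 7 CTR-PBS mice. For ELS mice the median log2 difference was -0.34, against -0.01 over all genes. The middle member there was Adamts1, which was not called. The PBS groups also enter the LPS comparisons above.

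Timp3, the matrix-bound inhibitor, was the member with the lowest adjusted p in both comparisons. In P9-CTR mice it ranged from 1.80 to 10.8 CPM with a median of 5.62. At P200 it was at 0 in 4 of 7 CTR-PBS mice, and the highest, mouse 1 of nest 8, had 0.993 CPM, below every P9-CTR mouse. The mean was 24.2-fold lower (log2 fold change -4.62, SE 0.89, edgeR adjusted p = 3.81e-05). In P9-ELS mice it ranged from 0 to 13.0 CPM with a median of 4.71, and the 2 lowest were the mice with few detected genes, 3 and 2 of nest 19 (0 and 0.101). None of the 6 ELS-PBS mice had a count, so that the mean was at least 231-fold lower than at P9 (edgeR adjusted p = 2.26e-07). Genes that were lower at P200 without overlap made up 10.5% of those tested in CTR mice and 7.03% in ELS mice. The Timp3 gene lies within Syn3, a synapsin gene on the opposite strand, and 1734 exonic bases belong to both. The strand setting of the counting is not given in the sources used here, and without strand the reads of the 2 genes cannot be told apart in these bases. Syn3 itself ranged from 0.853 to 3.57 CPM in P9-CTR mice, had at most 4 counts in a CTR-PBS mouse and none in the ELS-PBS mice.

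**Figure D3:**
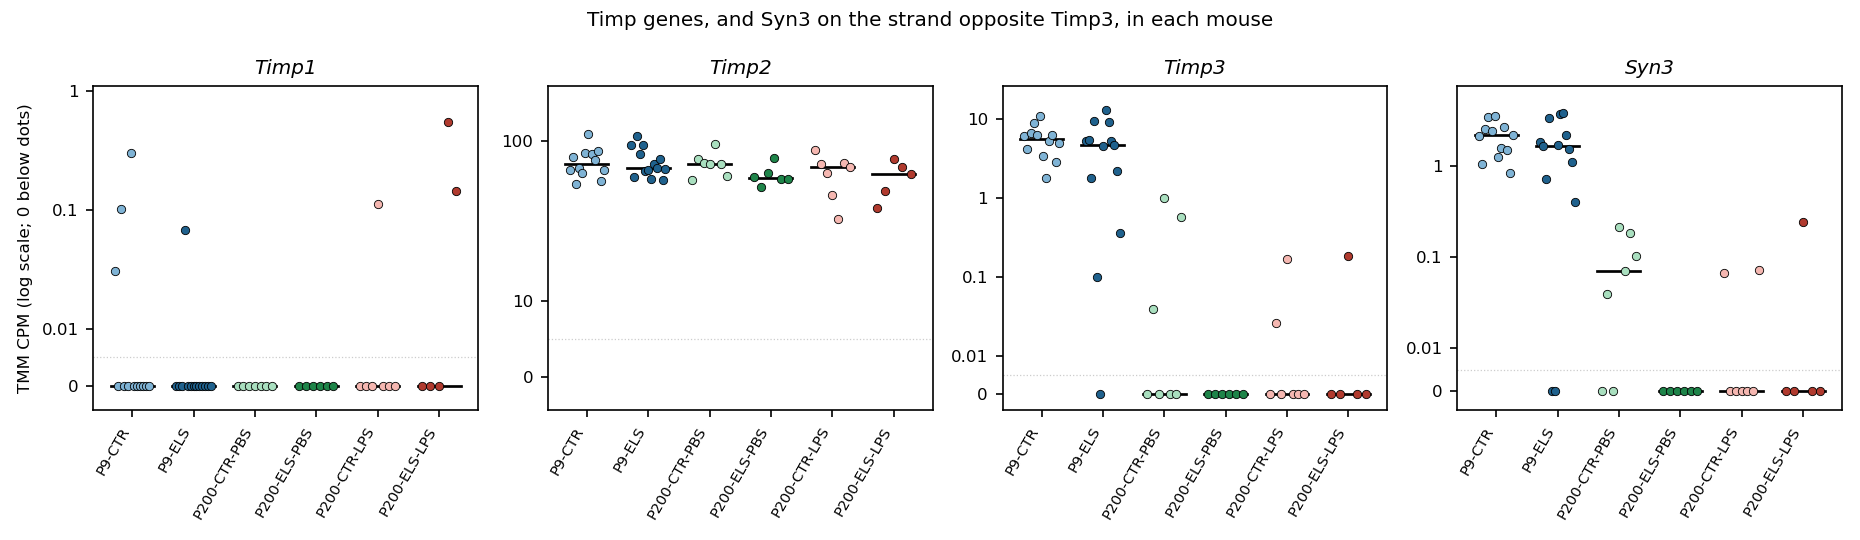
TMM-normalised CPM of Timp1, Timp2, Timp3 and of Syn3, on the strand opposite Timp3, in each mouse (log axis, mice at 0 below the dotted line, horizontal bars are medians). Timp2 stays between 32.7 and 111 CPM in all mice, while Timp3 and Syn3 are both found at P9 and are at or near 0 at P200.

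Mmp14 was lower at P9, from 0.487 to 4.52 CPM (median 1.29) in P9-CTR mice and from 0.396 to 5.56 (median 2.53) in P9-ELS mice. In CTR mice the ages overlapped, and the 2.05-fold rise (log2 fold change 1.02, SE 0.38, edgeR adjusted p = 0.0259) lay just past the fold threshold. The log2 fold change fell to between 0.84 and 0.996 without any 1 of the P9-CTR mice 1 and 2 of nest 15, 3 of nest 17, 2 and 3 of nest 51, 1 of nest 52 and 1 of nest 58, or of the CTR-PBS mice 2 of nest 5 and 1 of nest 8, with an adjusted p of 0.0882 without mouse 2 of nest 5. In ELS mice the rise was 3.90-fold (log2 fold change 1.99, SE 0.38, edgeR adjusted p = 3.44e-05), with the lowest ELS-PBS mouse (5.17 CPM) below the highest P9-ELS mouse (5.56 CPM, mouse 3 of nest 19).

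Adamts4 had counts in 7 of 12 P9-CTR mice, up to 0.967 CPM, and in 10 of 13 P9-ELS mice, up to 3.41 CPM. With CTR-PBS mice at 0, its mean was at least 13.0-fold lower at P200 in CTR mice (edgeR adjusted p = 0.016). This call was lost with limma-voom and the nest as random effect (log2 fold change -2.25, adjusted p = 0.262). In ELS mice the fitted difference of -2.77 (SE 1.21) was not called (edgeR adjusted p = 0.061), and without ELS-PBS mouse 1 of nest 11 it was -7.26 with an adjusted p of 0.00279. It was also called without any 1 of the P9-ELS mice 1 of nest 9 and 2 and 3 of nest 53 (adjusted p = 0.0495, 0.0457 and 0.0470).

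Mmp9 had counts in 8 of 12 P9-CTR mice, with a median of 0.424 and a maximum of 1.76 CPM, and in 2 of 13 P9-ELS mice, 1 and 2 of nest 9, with 0.827 and 0.594 CPM. With ELS-PBS mice at 0, the mean was at least 5.36-fold lower at P200 in ELS mice (edgeR adjusted p = 0.0282). The call was lost without mouse 1 (adjusted p = 0.0646) or 2 (0.0542) of nest 9, or without ELS-PBS mouse 1 of nest 2 (0.0512). It was also lost with DESeq2 (log2 fold change -3.84, adjusted p = 0.1245) and with limma-voom and the nest as random effect (-1.12, adjusted p = 0.398). Only through P9-CTR mice had Mmp9 passed the filter on low counts. In CTR mice the mean was 8.60-fold lower at P200 (log2 fold change -3.13, SE 1.36, edgeR adjusted p = 0.0578), which was not called. Leaving out any 1 of the P9-CTR mice 2 of nest 15, 2 and 3 of nest 51 and 1 of nest 52 gave an adjusted p of 0.0489 to 0.0494, and leaving out CTR-PBS mouse 1 of nest 15 gave 0.0247. It was also called when only the compared groups were fitted (edgeR adjusted p = 0.0329), with limma-voom and the nest as random effect (0.0289) and without the P9-ELS mice 2 and 3 of nest 19 (edgeR adjusted p = 0.0493).

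Adamts1, Mmp12 and Timp2 were not called between the ages. Adamts1 had a median of 8.25 CPM in P9-CTR and 6.42 in P9-ELS mice, close to 6.80 and 6.26 in the PBS groups at P200. Timp2 had a median of 71.9 CPM in P9-CTR and 68.1 in P9-ELS mice, and its range over all 25 P9 mice was 53.8 to 111. Adamts9, which also cleaves versican, had at most 10 counts in a mouse, with 38 of its 45 counts at P9 in 9 of 25 mice.

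**Figure D4:**
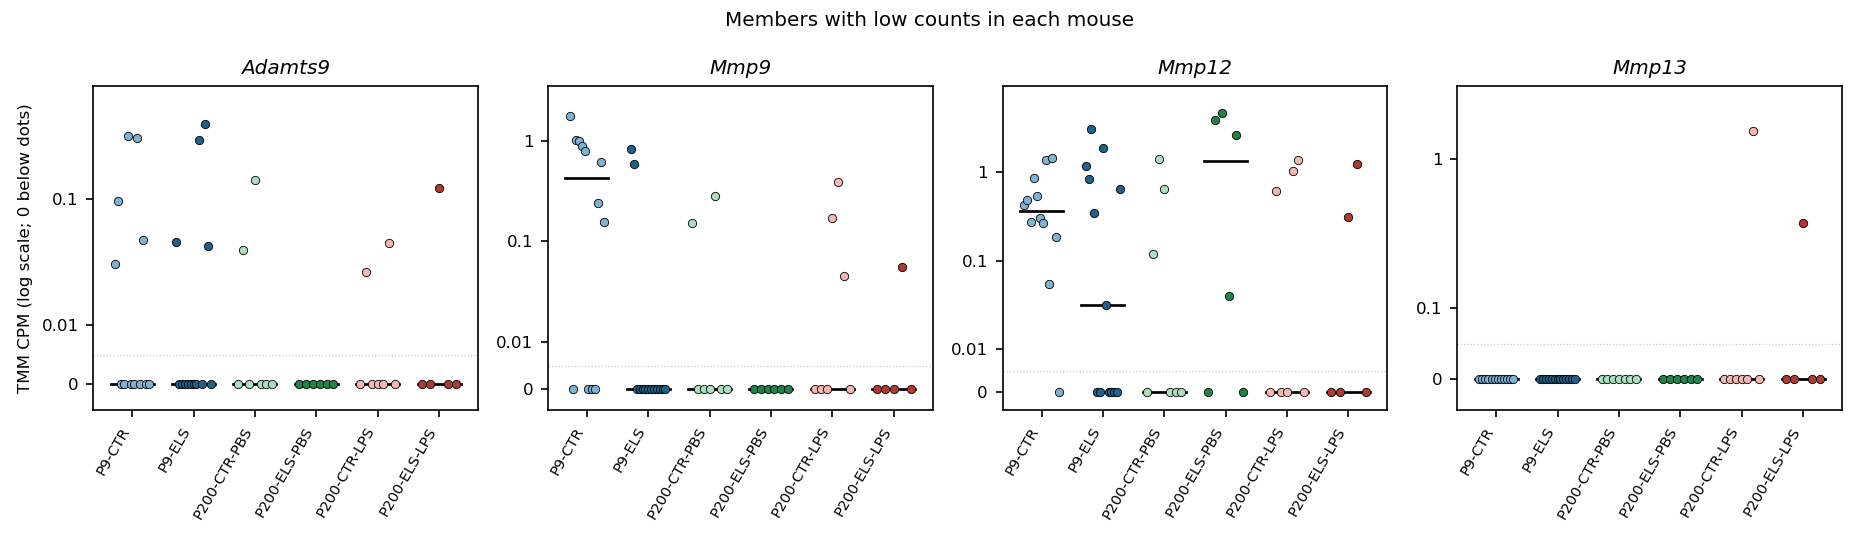
TMM-normalised CPM of Adamts9, Mmp9, Mmp12 and Mmp13 in each mouse (log axis, mice at 0 below the dotted line, horizontal bars are medians). No mouse exceeds 4.60 CPM, Mmp9 is found in 8 P9-CTR and 2 P9-ELS mice, and Mmp13 in 1 mouse of each LPS group.

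The 10 microglia markers summed to 38170 to 65070 CPM at P9 and to 78120 to 86230 in the PBS mice at P200, without overlap. Markers of other cell types also differed between the ages. The summed level of 8 border-associated macrophage markers was 477 to 922 CPM at P9 and 2.84 to 10.6 in the PBS mice at P200, and that of 8 neuron markers was 40.2 to 197 and 2.54 to 11.9. Neutrophil markers summed to 9.08 to 30.9 and 0 to 1.29 CPM, monocyte markers to 223.5 to 665 and 27.1 to 77.9, and oligodendrocyte precursor markers to 1.90 to 20.9 and 0 to 0.764. Mural, fibroblast and choroid plexus markers had their highest values at P9 (25.4, 8.85 and 17.06 CPM, against 2.38, 0.570 and 9.43 at P200). Astrocyte (116 to 399 against 303 to 503), oligodendrocyte (68.4 to 199 against 75.4 to 181.5) and endothelial markers (1.77 to 56.5 against 30.3 to 73.5) overlapped between the ages. Their part in the differences of Timp3, Adamts4 and Mmp9 was not tested.

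Of 15 tested matrix substrates, which these proteases cleave or act beside, 11 were called lower at P200 in CTR mice and 11 in ELS mice, and none higher, where 18.5% and 17.5% of all genes were called lower. Ncan, the proteoglycan neurocan that neurons and astrocytes are known to make, was at 88.6 ± 26.6 (SD, n = 12) CPM in P9-CTR mice and 0.148 ± 0.213 (n = 7) in CTR-PBS mice (edgeR adjusted p = 7.56e-17). Tnc, the matrix glycoprotein tenascin C, was at 4.88 ± 2.88 and 0.0175 ± 0.0304 CPM (adjusted p = 8.82e-08). Of 10 other protease inhibitors tested, 2 were called higher and 5 lower in CTR mice and 2 higher and 4 lower in ELS mice. Over all tested genes 7.98% were called higher in CTR mice and 8.68% in ELS mice. Cst3, the cathepsin inhibitor cystatin C, rose from 7865 ± 1151 to 30200 ± 5277 CPM in CTR mice (edgeR adjusted p = 7.02e-17). Timp4, the remaining Timp gene, was called lower in both conditions, from 3.30 ± 1.21 to 0.115 ± 0.189 CPM in CTR mice (adjusted p = 1.41e-04) and from 2.44 ± 2.18 to 0.112 ± 0.174 in ELS mice (adjusted p = 6.61e-04).

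Among other Mmp genes, Mmp28 and Mmp23 were called higher and Mmp16 and Mmp17 lower at P200 in both conditions (11 tested). Over all tested genes 7.98% were called higher and 18.5% lower in CTR mice, and 8.68% and 17.5% in ELS mice. Mmp28, the secreted metalloproteinase epilysin, rose from 1.195 ± 0.465 to 8.73 ± 5.37 CPM in CTR mice (edgeR adjusted p = 6.11e-07) and from 1.24 ± 1.39 to 6.62 ± 2.29 in ELS mice (adjusted p = 1.14e-05). Of the Adamts and Adamtsl genes, Adamtsl2 was called higher and Adamts17 and Adamts18 lower in both (7 tested). Adam9 was called lower among 7 sheddases, from 164 ± 25.0 to 41.2 ± 4.29 CPM in CTR mice (adjusted p = 3.83e-11), with 4 sheddases lower in CTR and 3 in ELS mice. Of 5 tested cathepsins, 1 was called higher and 2 lower in CTR mice, and 2 lower in ELS mice. Ctss, cathepsin S, rose from 5347 ± 871 to 11750 ± 956 CPM in CTR mice (edgeR adjusted p = 2.93e-09), and Ctsb, cathepsin B, fell from 13010 ± 1668 to 5028 ± 285.5 CPM in CTR mice (adjusted p = 3.22e-15). The plasminogen list had 3 of 7 genes lower in each condition, Plat, Htra1 and Pcsk5. Plat, tissue plasminogen activator, was at 4.32 ± 2.16 CPM in P9-CTR and 0.0146 ± 0.0387 in CTR-PBS mice (adjusted p = 5.05e-06).

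No member and no listed pathway gene was called between ELS and CTR mice, at P9, after PBS or after LPS. At P9 no gene was called at all by edgeR (0%), with 914 genes (5.47%) at an unadjusted p under 0.05. Of the members, Adamts4 and Mmp9 were among these. Mmp9 had passed the filter on low counts only through P9-CTR mice, so its difference here depends on the filter. Adamts4 was 3.59-fold higher on average in P9-ELS than in P9-CTR mice (log2 fold change 1.76, SE 0.85, edgeR adjusted p = 0.908), with overlapping groups, and Mmp9 was 4.92-fold lower (-2.17, SE 0.99, adjusted p = 0.908). Counts summed per nest gave no call either.

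In PBS-injected adults 26 of all tested genes (0.156%) were called between ELS and CTR mice, 0.114% higher and 0.0419% lower, none of them a member. No member had groups without overlap, as 0.323% of genes did. At an unadjusted p under 0.05 there were 4 of 7 members, against 9.71% of all genes, namely Mmp14, Timp3, Adamts4 and Mmp9. Mmp14 was 2.21-fold higher after ELS (log2 fold change 1.14, SE 0.45, edgeR adjusted p = 0.325). The groups overlapped, since CTR-PBS mouse 2 of nest 5 (6.97 CPM) lay above ELS-PBS mouse 2 of nest 17 (5.17). The other 3 rested on few counts: 32 counts of Timp3 in 3 CTR-PBS mice and none in ELS-PBS mice (mean at least 11.3-fold lower, edgeR adjusted p = 0.105), 16 counts of Adamts4 in 1 ELS-PBS mouse (adjusted p = 0.474), and 7 counts of Mmp9 in 2 CTR-PBS mice (adjusted p = 0.496). Timp3 was called by the likelihood-ratio test (adjusted p = 0.00778), by DESeq2 (0.0170) and without the P9-ELS mice 2 and 3 of nest 19 (edgeR adjusted p = 0.0447). Mmp12 was at 3.84, 4.60 and 2.59 CPM in ELS-PBS mice 1 of nest 4, 1 of nest 11 and 2 of nest 17, at 0 or 0.0402 in the other 3, and up to 1.40 in CTR-PBS mice (edgeR adjusted p = 0.597).

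After LPS no gene was called between ELS and CTR mice (0%), and 798 genes (4.78%) but no member had an unadjusted p under 0.05. Mmp14 averaged 18.7 ± 4.15 (SD, n = 5) CPM in ELS-LPS and 11.197 ± 2.42 (n = 7) in CTR-LPS mice, a difference of 0.74 (SE 0.47) on the log2 scale with an edgeR adjusted p of 1. Its groups overlapped between 13.3 and 15.0 CPM. Adamts1 averaged 39.5 ± 21.0 and 40.1 ± 25.7 CPM. The interaction of age and condition called 5 genes (0.0299%) and no member, with 10.3% of genes at an unadjusted p under 0.05, Timp3 again being 1 of them (edgeR adjusted p = 0.267).

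**Figure D5:**
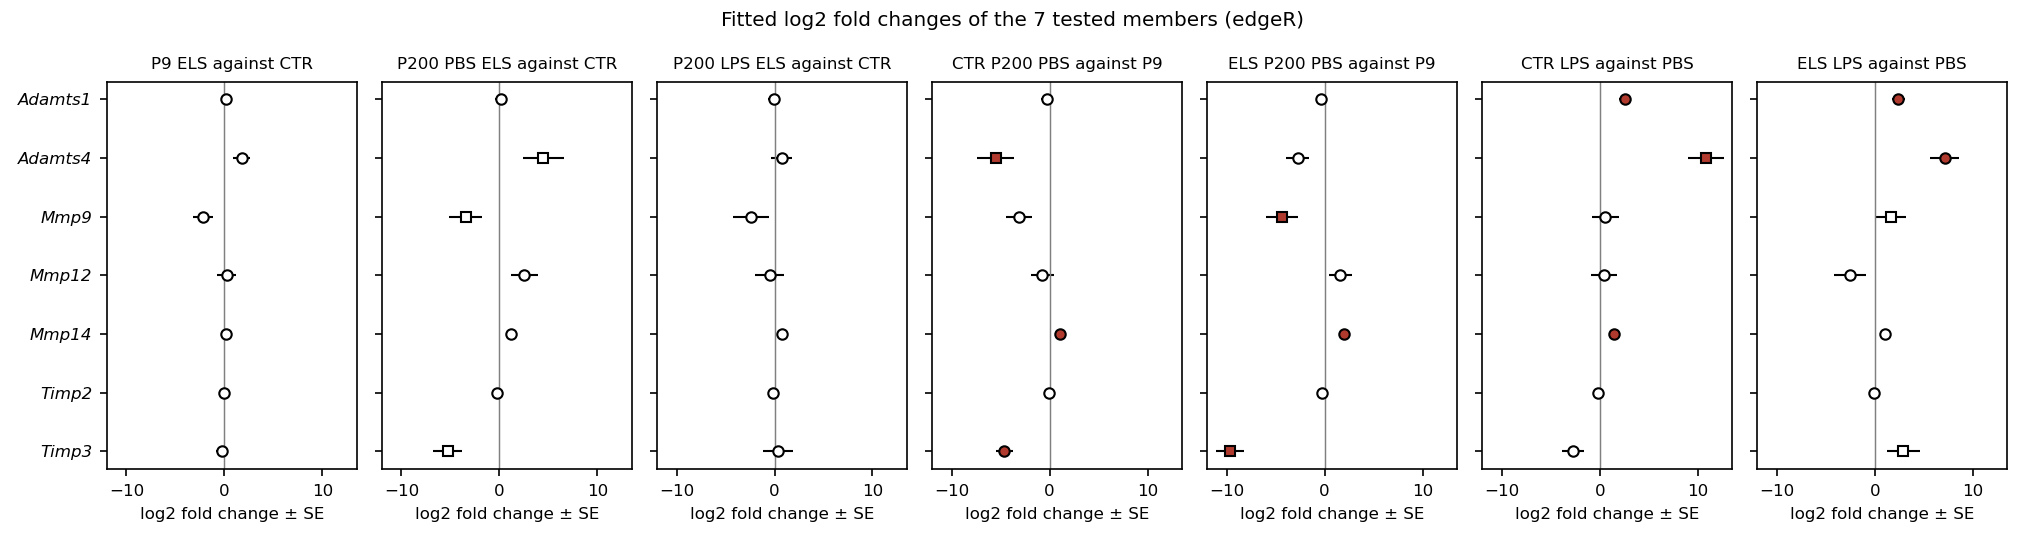
Fitted log2 fold changes with SE of the 7 tested members in 7 comparisons (edgeR, filled symbols called, squares where 1 of the groups had no count or both had at most 3, so that the size depends on the fit). Filled symbols appear only in the age and LPS panels, with Mmp14 to the right and Timp3 to the left in both age panels, and Adamts1 and Adamts4 to the right in both LPS panels.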

How the data were processed

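Poly-A mRNA of sorted hippocampal microglia was sequenced from each mouse. The authors trimmed reads with cutadapt 2.10, mapped them with STAR to GRCm39, and counted unique exonic reads per gene with HTSeq 0.11.0. The deposited values are raw counts per gene without normalization. The annotation release and strand setting are not given in the sources used here.

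Mice were grouped by their labels. Whether same-nest mice pair was checked on 15 PBS and LPS pairs at P200: correlations of their deviations ranged from -0.04 to 0.10. The main fit used no block. Same-nest mice at P9 were not checked in this way. Within an age each nest belonged to 1 condition, so a nest term could not be fitted for ELS against CTR. The correlation within nests estimated for limma-voom was 0.0778. Counts were normalised with TMM, genes with 1 CPM or more in at most 2 mice were left out, and 6 group means were fitted to the 50 mice with edgeR 4.0.16 (R 4.3.3), tested by quasi-likelihood in 9 comparisons with Benjamini-Hochberg adjustment over 16696 genes. Mice of a nest are not independent, so p-values may be too small. The script was tested on simulated data. Exon lengths came from GENCODE, where 52610 of the 53700 genes were found. Correlations used log2 CPM with a prior count of 2. Folds against a group at 0 used a floor of 3 counts over the group, which covers counting error only.

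The members and lists were chosen with earlier results of these data known. All 10 members are named, other pathway genes only where called (at most 3 per list and comparison by size). Additional genes called in lists of 4 or fewer were named after their values were seen. Some listed genes are not reported here. Alternatives were DESeq2 1.42.0, the likelihood-ratio test, other size factors, filters and fold thresholds, limma 3.58.1 with voom, fits of the compared groups alone, a replicate block, nest sums, longest transcripts as length, and leaving out mice.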

Additional observations from a re-analysis of the deposited data

Results flagged for a closer look

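The level of a single mouse stood apart from the rest of its group, by the gap to its nearest neighbour relative to the range on the log2 scale, in 5 of 28 combinations of a tested member and a P200 group of 5 to 7 mice. Chance flags about 1 in 20 where values are normally distributed. A group with only 1 mouse above 0 is always flagged, as for Adamts4 in ELS-PBS mice and Mmp9 and Timp3 in ELS-LPS mice. The 5 flags can therefore not be set against that rate. Adamts1 was at 0 CPM in the CTR-PBS mouse 1 of nest 1, where its group mates had 2.85 to 12.8, and this is the P200 mouse with the fewest detected genes. Without it the rise of Adamts1 after LPS in CTR mice was 2.32 on the log2 scale (edgeR adjusted p = 0.00242). Adamts4 was at 0.827 CPM in ELS-PBS mouse 1 of nest 11 and at 0 in the others of that group. Mmp9 in ELS-LPS mouse 3 of nest 17 (0.0549 CPM, 1 count), Timp3 in CTR-LPS mouse 2 of nest 8 (0.169 CPM, 3 counts, others at most 0.0262) and Timp3 in ELS-LPS mouse 2 of nest 11 (0.185 CPM, 3 counts, others at 0) rested on at most 3 counts.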

How the results depend on the processing

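Over all alternatives, 23 fold changes of members with an unadjusted p under 0.05 were refitted 633 times. Of the 11 called, 8 stayed called in every refit and 3 (Mmp14 and Adamts4 with age in CTR mice, Mmp9 with age in ELS mice) lost the call in 15 refits in all. The only value to leave its direction was Adamts4 in ELS-PBS against CTR-PBS mice, which ranged from 0 to 4.78 when 1 mouse was left out. Between ELS-PBS and CTR-PBS mice, where no member was called, 1 (Timp3) was called by DESeq2, by the likelihood-ratio test and without the P9-ELS mice 2 and 3 of nest 19. Leaving out 1 mouse gave 3 to 4 called members for LPS in CTR mice, 2 for LPS in ELS mice, 2 to 4 for age in both conditions, and 0 elsewhere. Of the 40 other member fold changes, 22 changed sign in some refit and none was called. With the nest number as a replicate block, called genes were 1235 against 1606 for LPS in CTR mice and 1214 against 1313 in ELS mice. The block called 3 members in each, Mmp14 joining in ELS mice (1.09, adjusted p = 0.0152), and 0 for the interaction. Same-nest pairs had a correlation over 0.1 in 1 of 15. With the longest transcript as length, 8 of 60 levels per kb moved by more than 1 SD, 6 of them of Mmp14. The exons of Mmp14 cover 6166 bases together, and its longest transcript has 3450. DESeq2 gave no adjusted p for Mmp9 in 2 comparisons. Counts near 0 limit Adamts9, Mmp9, Mmp12, Mmp13, Timp1 and, at P200, Timp3.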
